A study of Homo sapiens with 12 samples.

Results

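The collagen, laminin and basement membrane genes are the transcripts whose products build the extracellular matrix, and their peaks were taken from RIP-seq of METTL16, eIF3a and eIF3b. RIP-seq pulls down a protein with an antibody, sequences the RNA that comes with it and compares this RNA with the input taken before the pull-down. Members were all gene names in the 6 RIP peak lists that begin with COL, a number, A and a number or with LAMA, LAMB or LAMC and a number, together with HSPG2, AGRN, NID1 and NID2. The rule found 26 of the 10830 genes in the lists, and these 26 genes held 472 of the 101848 peaks. Of the 26, 25 code for a matrix protein. COL4A3BP matched by symbol only, since it is an older name of CERT1, which codes for a lipid transfer protein. NID2 carried no peak in any list.

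All 12 samples came from HepG2, an established line of human liver cancer, and comprised 6 RIP samples and 6 inputs, with 2 replicates for each protein. METTL16 is an RNA methyltransferase, and eIF3a and eIF3b are subunits of a translation initiation factor. Stable lines were made by infection with 3XFlag-METTL16, 3XFlag-eIF3a or 3XFlag-eIF3b, so each RIP came from cells that carried a transgene for its own protein on top of the endogenous gene, and no untreated line entered the comparisons. Per the labels, METTL16 and eIF3b were pulled down with a Flag antibody and eIF3a with an antibody against eIF3a. By these labels, antibody and protein cannot be told apart in comparisons with eIF3a. The deposited lists are all named for flag, those of eIF3a included, and which antibody made the eIF3a lists was not settled here. The study's methods call the 2 replicates biological, without naming how they were separated.

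The lists held 12921 to 21733 peaks on 5226 to 8166 genes. The eIF3a replicate 2 list had the fewest genes and peaks, with 21733 peaks in eIF3a replicate 1. In number of peaks it was close to the METTL16 lists, which held 13199 and 13136. A peak is a stretch of exons where RIP reads exceeded input reads, so it measures enrichment and not the level of a transcript. Markers of liver cells had peaks for 7 of 8 genes, with SERPINA1 in all 6 lists and TTR in none. Of the markers of stellate cells or fibroblasts, 2 of 6 had a peak, ACTA2 in 5 lists and PDGFRB in 1, while DCN, LUM, PDGFRA and DES had none. Of 4 endothelial markers, VWF had peaks in 5 lists, PECAM1 in 4, and KDR and CDH5 in none. The part of these markers in the results was not tested.

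Collagens are trimers whose central rod, the triple helix, is built from a repeated unit of glycine followed by 2 other amino acids. Fibrillar collagens such as types II, V and XXVII form fibres. Basement membranes are thin sheets in which a network of collagen IV and a network of laminin are joined by nidogen and by the proteoglycans perlecan (HSPG2) and agrin (AGRN). A laminin is made of 1 alpha, 1 beta and 1 gamma chain. In liver, much of this matrix is known to come from stellate and endothelial cells, and hepatocyte-derived tumour cells can make part of it.

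Several members carried peaks at the same bases in all 6 lists, and the spliced sequence of 5 such stretches shows what was recovered. The first 4 stretches code for triple helix, and their capitals mark the glycine codons, 1 in every 3 codons. They lie in COL27A1 (GRCh38 chr9:114288485-114289295, plus strand, exons 42 to 45, 21 glycine codons), COL9A2 (chr1:40304503-40306160, minus strand, exons 20 to 23), COL9A3 (chr20:62826213-62827294, plus strand, exons 14 to 16) and COL18A1 (chr21:45480796-45482821, plus strand, exons 13 to 15), the last 3 with 17 glycine codons each. Exons are numbered along the GENCODE canonical transcript. The fifth stretch comes from LAMA5 (chr20:62322278-62322755, minus strand), with no such repeat, where lower case is exon 46 and capitals are exon 47. Introns were left out of all 5.
COL27A1: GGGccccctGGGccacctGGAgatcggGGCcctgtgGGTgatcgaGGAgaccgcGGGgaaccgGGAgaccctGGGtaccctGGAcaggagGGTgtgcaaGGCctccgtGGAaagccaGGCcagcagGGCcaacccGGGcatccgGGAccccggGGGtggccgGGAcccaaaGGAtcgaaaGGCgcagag
COL9A2: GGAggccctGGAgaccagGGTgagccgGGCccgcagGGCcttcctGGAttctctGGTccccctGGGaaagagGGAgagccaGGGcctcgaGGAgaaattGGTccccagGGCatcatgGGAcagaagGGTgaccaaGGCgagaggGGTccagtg
COL9A3: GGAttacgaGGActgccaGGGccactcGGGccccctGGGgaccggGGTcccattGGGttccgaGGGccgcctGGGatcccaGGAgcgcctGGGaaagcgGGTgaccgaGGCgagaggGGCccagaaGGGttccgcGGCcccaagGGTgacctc
COL18A1: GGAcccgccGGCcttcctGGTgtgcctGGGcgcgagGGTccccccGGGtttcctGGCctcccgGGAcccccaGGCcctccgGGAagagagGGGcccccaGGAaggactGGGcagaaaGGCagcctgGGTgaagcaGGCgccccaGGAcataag
LAMA5: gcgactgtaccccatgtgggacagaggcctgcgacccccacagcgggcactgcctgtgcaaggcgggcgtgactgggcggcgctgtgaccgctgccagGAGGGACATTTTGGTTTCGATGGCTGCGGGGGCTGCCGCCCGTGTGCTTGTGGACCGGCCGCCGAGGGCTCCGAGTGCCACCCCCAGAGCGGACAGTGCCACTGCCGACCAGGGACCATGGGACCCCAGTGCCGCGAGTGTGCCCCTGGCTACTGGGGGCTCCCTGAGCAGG
The GC content of these stretches was 71.4% in COL27A1, 66.0% in COL9A2, 71.9% in COL9A3, 72.5% in COL18A1 and 70.7% in LAMA5. Glycine codons begin with GG, so part of this composition is fixed by the repeat in the collagens, but not in LAMA5. Mean GC content over all member peaks was 62.0% to 65.4% per list, against 53.1% to 60.8% over all peaks.

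Of the 61 annotated protein coding genes that the rule or the older symbol takes in, 26 had a peak in at least 1 list, below the share of 53.6% over all annotated protein coding genes. The 35 genes without a peak included the chains of the most abundant fibrillar collagens, COL1A1, COL1A2 and COL3A1. They also included 4 of the 6 collagen IV chains, COL4A1, COL4A2, COL4A3 and COL4A4, and the laminin chains LAMA1, LAMA4, LAMB3 and LAMB4. Without input reads, a gene that was not enriched and a gene that was not transcribed cannot be told apart.

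METTL16 had a peak on 16 members in replicate 1 and 17 in replicate 2, beside 53.8% and 58.5% of all 10830 list genes. eIF3a had a peak on 22 and 17 members, beside 75.4% and 48.3% of all list genes. eIF3b had a peak on 23 and 18 members, beside 74.5% and 69.9%. As shares of the 26 members these were 61.5% and 65.4% for METTL16, 84.6% and 65.4% for eIF3a, and 88.5% and 69.2% for eIF3b. The 95% Wilson intervals of single lists were wide, from 42.5% to 77.6% in METTL16 replicate 1 and from 71.0% to 96.0% in eIF3b replicate 1, and they cover counting error only. The 2 lists of eIF3a and the 2 of eIF3b lay further apart than the 2 of METTL16. The mean share was 63.5% ± 2.72 (SD, n = 2) for METTL16, 75.0% ± 13.6 for eIF3a and 78.8% ± 13.6 for eIF3b. Both METTL16 values lay below both eIF3b values, with p = 0.33 by an exact two-sided permutation test and 0.67 after Benjamini-Hochberg adjustment over the 3 pairs of proteins. With 2 lists against 2, no p below 0.33 is possible. The direction was lost when each list was cut to its 5000 peaks with the smallest p-values, where the mean shares of METTL16 and eIF3b differed by 0 percentage points.

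A peak in both replicates was found on 16 members for METTL16, 14 for eIF3a and 18 for eIF3b, against 42.6%, 42.4% and 60.0% of all list genes. Of the 26 members, 13 had a peak in all 6 lists, where 25.2% of all list genes did. These were AGRN, HSPG2, NID1, LAMA5, LAMB2, LAMC1, COL4A5, COL9A2, COL9A3, COL16A1, COL18A1, COL19A1 and COL27A1. They include several basement membrane parts, namely 1 alpha, 1 beta and 1 gamma laminin chain, 1 collagen IV chain, nidogen, perlecan and agrin. COL6A1, COL26A1 and LAMB1 were in 5 lists and missed eIF3a replicate 2. Without that list, 16 members were in all of the other 5, beside 34.5% of all list genes. COL7A1 was in 4 lists, COL4A6 and COL6A2 in 3, and COL2A1, LAMC3 and COL4A3BP in 2. COL23A1, COL5A1, LAMA2 and LAMA3 were in 1 list each. The member sets of the lists overlapped with a mean Jaccard index (genes shared over genes in either) of 0.761 ± 0.191 (SD, 3 pairs) within a protein and 0.741 ± 0.0990 (12 pairs) between proteins. The difference of 0.0200 had p = 0.33 when all 15 pairings of the lists were enumerated in an exact permutation test, one-sided. The lowest index within a protein was 0.56, between the 2 eIF3a lists.

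**Figure D1:**
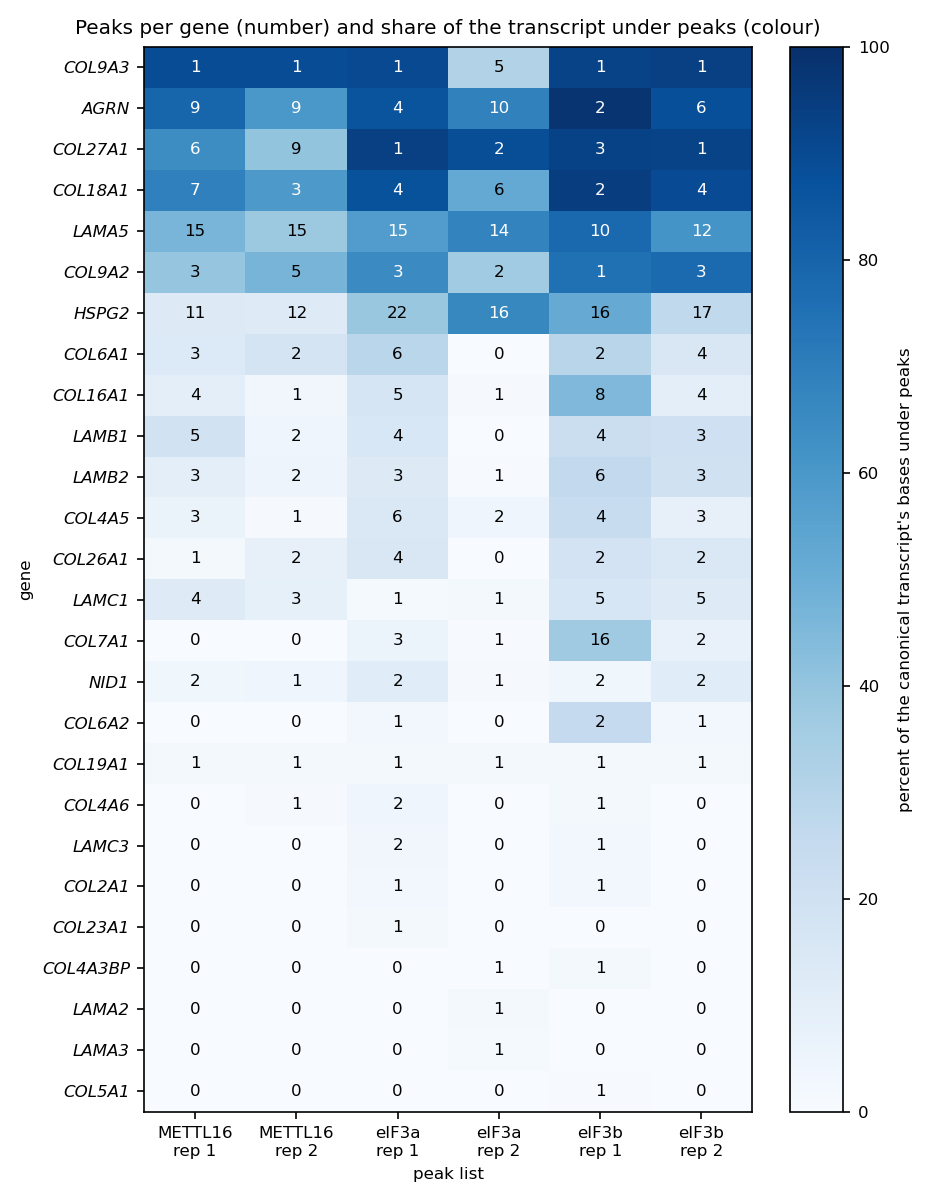
Each cell gives the number of peaks of a gene (rows) in a list (columns), and its colour the percentage of the bases of the canonical transcript that lay under peaks, from 0 to 100. COL9A3, AGRN, COL27A1, COL18A1, LAMA5 and COL9A2 are dark in most lists, while COL19A1 holds 1 peak in each of the 6 lists and stays pale.

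Most peaks of these genes lay in the coding sequence and ran across exon borders. The middle base of the peak was coding for 88.5% and 92.9% of member peaks in the METTL16 lists, 84.8% and 81.8% in the eIF3a lists and 84.8% and 82.4% in the eIF3b lists, against 56.6% to 68.6% of all peaks. Peaks on 2 or more exonic blocks made up 68.5% to 81.8% of member peaks and 37.9% to 45.7% of all peaks. Peaks on 5 or more blocks made up 20% to 39.1% of member peaks and 3.80% to 10.8% of all peaks. At least 1 such peak was found on 13 of the 26 members, beside 21.9% of all list genes. The members also have a different gene structure, with a median of 39 exons against 10 for all list genes, a median transcript of 6161.5 against 3477 bases, and a median coding share of 76.8% against 49.8%. These values move with the peak shares, and their part in the difference was not tested.

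Members with a peak carried a mean of 3.88 to 4.88 peaks per list, against 2.07 to 2.66 for all genes. Per kilobase of transcript there were 0.457 peaks per list for members and 0.375 for all list genes. This value also counts the bases of genes without a peak in a given list, so the 2 measures rest on different sets of genes. Median exonic width was 181 to 241 bases for member peaks and 180 to 210 for all peaks. Over 50% of the transcript lay under peaks for 17.6% to 33.3% of the members with a peak in a list, and for 4.57% to 9.10% of all genes with a peak. Median fold enrichment was 2.18 to 4.15 for member peaks and 2.73 to 3.40 for all peaks, with the members higher in 4 of the 6 lists. A peak of at least 4-fold was found on 24 of the 26 members and on 72.8% of all list genes. LAMB1 and LAMC1 had the lowest median of the highest peak per list, at 2.19 and 2.47. LAMC1 and NID1 were the members whose highest peak stayed under 4-fold.

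**Figure D2:**
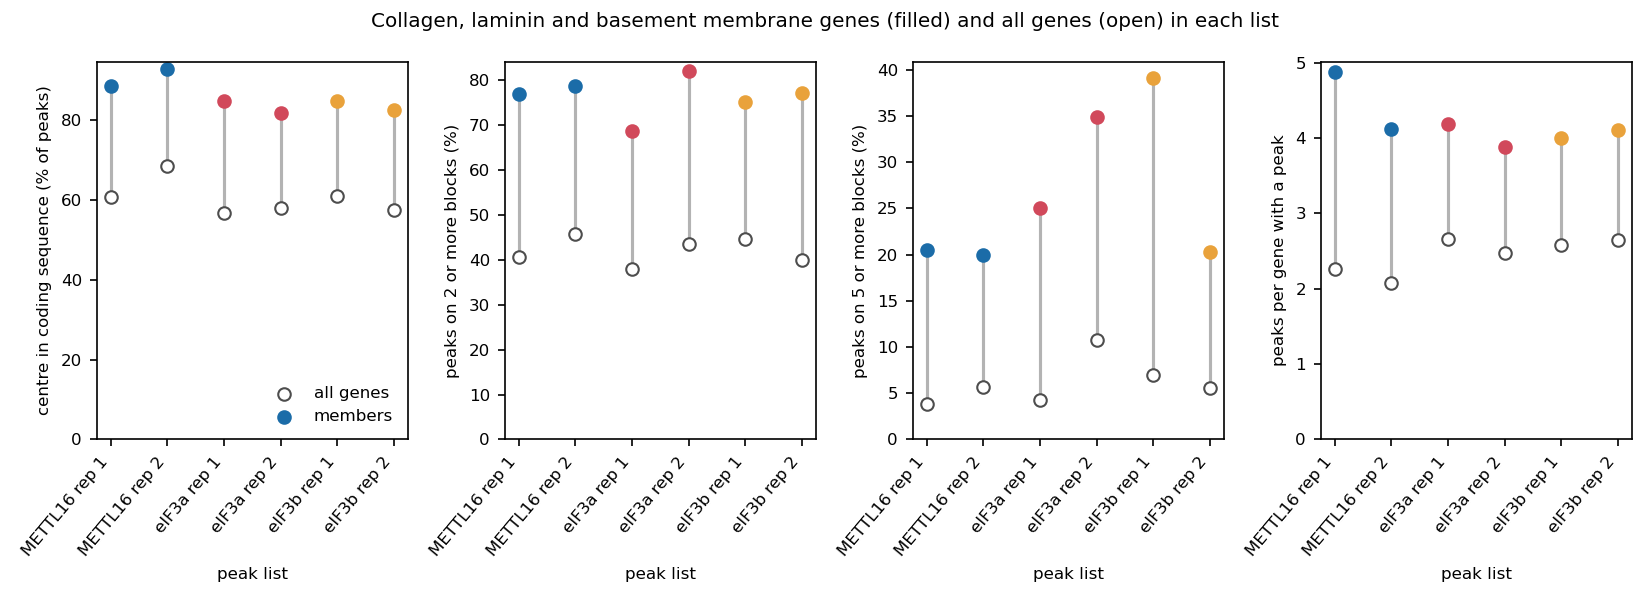
The filled points give the member genes and the open points all genes in each of the 6 lists (x axis), for the percentage of peaks centred in coding sequence, the percentage on 2 or more and on 5 or more exonic blocks, and the mean number of peaks per gene with a peak (y axes, from 0). The filled point lies above the open point in each of the 6 lists in all 4 panels.

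Between proteins, the coding share of member peaks was 90.7% ± 3.11 (SD, n = 2) for METTL16, 83.3% ± 2.10 for eIF3a and 83.6% ± 1.66 for eIF3b. Both METTL16 lists lay above the other 4, with p = 0.33 in the exact two-sided permutation test against either protein, the smallest possible value, and 0.50 after adjustment. The separation from eIF3b was lost with the 5000 peaks of smallest p per list, where the difference was 4.67 percentage points with p = 0.67 by the exact permutation test. It was also lost with only the highest peak of each gene, where the difference was 6.82 percentage points with an exact permutation p of 1. Among peaks of at least 4-fold, METTL16 lay above eIF3a by 15.7 percentage points and eIF3a minus eIF3b was -12.6, each with an exact permutation p of 0.33. Over all peaks, METTL16 replicate 1 and eIF3b replicate 1 both stood at 60.9%, so there the METTL16 lists did not separate from the rest. Some member peaks also covered exons of another annotated gene, and where these were left out the coding share was 90.0% and 92.4% for METTL16 and 85.1% to 86.9% in the other 4 lists. Peaks centred in a 3′ UTR numbered 4 to 13 per list among member peaks, and made up 24.0% to 38.5% of all peaks against 5.71% to about 16% of member peaks. Mean peaks per member with a peak were 4.50 ± 0.536 for METTL16, 4.03 ± 0.212 for eIF3a and 4.06 ± 0.0786 for eIF3b. Median width was 195.5 ± 20.5 bases for METTL16, 225.5 ± 20.5 for eIF3a and 233.5 ± 10.6 for eIF3b. By list these medians were 210 and 181 bases for METTL16, 211 and 240 for eIF3a, and 241 and 226 for eIF3b. Both METTL16 lists were below the other 4 in width, with p = 0.33 against either protein by the exact test. METTL16 replicate 1, at 210 bases, was nearly level with eIF3a replicate 1, at 211. Among peaks of at least 4-fold the direction in width turned around, with METTL16 peaks wider than eIF3a peaks by 164 bases and than eIF3b peaks by 74.5 bases.

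COL27A1, a fibrillar collagen chain, had the highest median enrichment of the members, and its transcript was covered almost whole in the eIF3a and eIF3b lists and in part in the METTL16 lists. Its highest peak stood at 21.7-fold and 21.4-fold in the METTL16 lists, 23.6-fold and 26.7-fold in the eIF3a lists, and 30.1-fold and 46.2-fold in the eIF3b lists. Peaks covered 64.4% and 39.9% of the transcript for METTL16, 93.4% and 88.5% for eIF3a, and 92.7% and 92.3% for eIF3b. Both METTL16 lists lay below the other 4 in fold and in cover. In eIF3a replicate 1 the whole gene was a single peak of 7301 bases on 61 exonic blocks, while METTL16 broke it into 6 and 9 peaks. All 6 lists shared 2821 bases, or 36.1% of the transcript, and the longest shared stretch held 1288 coding bases of exons 35 to 54 (chr9:114269253-114301454). The COL27A1 sequence printed above lies inside it.

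The 2 measured chains of collagen IX, which decorates cartilage fibres, and collagen XVIII of basement membranes were also covered over long stretches, at lower enrichment. Peaks covered 88.7% of the COL9A3 transcript in both METTL16 lists, 89.9% and 31.4% in the eIF3a lists, and 92.3% and 93.5% in the eIF3b lists. Its highest peaks ran from 1.64-fold in eIF3a replicate 2 to 7.96-fold in eIF3b replicate 1. Thus 1 list of the 6 broke the pattern, with 5 short peaks in place of 1 long peak. For COL9A2, 39.8% and 47.2% of the transcript was covered for METTL16, 64.9% and 36.6% for eIF3a, and 75.2% and 77.4% for eIF3b, and its highest peak was 3.00-fold to 15.8-fold. The eIF3b lists were above the other 4 in cover of COL9A2. For COL18A1, 68.8% and 59.4% was covered for METTL16, 87.1% and 52.3% for eIF3a, and 94.3% and 89.3% for eIF3b, with highest peaks of 3.67-fold to 8.02-fold. Of the 26 COL18A1 peaks, 16 also covered exons of SLC19A1, which lies on the other strand, and whether the authors counted by strand is not given in the sources used here. The bases in all 6 lists came to 783 in COL9A3, 628 in COL9A2 and 1563 in COL18A1.

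COL16A1, a collagen found beside fibres, had high folds on few bases. Its highest peak was 11.3-fold and 14.3-fold for METTL16, 44.6-fold and 15.9-fold for eIF3a, and 19.2-fold and 14.7-fold for eIF3b. Cover was 10.0% and 3.32%, 17.2% and 1.13%, and 45.3% and 9.97% of the transcript in the same order, and no base was shared by all 6 lists. Cover differed widely between the 2 replicates of each protein. The 15.9-fold peak of eIF3a replicate 2 was 61 bases wide and had the same fold and log10 p of -3.60 as 57 peaks of that list, itself included. The 11.3-fold and 14.3-fold METTL16 peaks shared fold and p with 19 and 21 peaks of their lists, themselves included. For the 44.6-fold peak of eIF3a and the 14.7-fold peak of eIF3b these were 7 and 8. Only the 19.2-fold peak of eIF3b replicate 1 had values of its own.

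COL19A1 differed from the other collagens, because its peaks lay at 1 site in the 3′ UTR and none touched its coding sequence. Each list held 1 peak of 151 or 181 bases there, and the 151 bases at chr6:70211405-70211555 in exon 51 were common to all 6. The fold was 25.2 and 8.93 for METTL16, about 16 and 6.82 for eIF3a, and 28.0 and 4.77 for eIF3b. In each protein replicate 1 was the higher of the 2, and the proteins overlapped. GC content of the shared bases was 39.1%, lower than in the collagen stretches printed above.

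**Figure D3:**
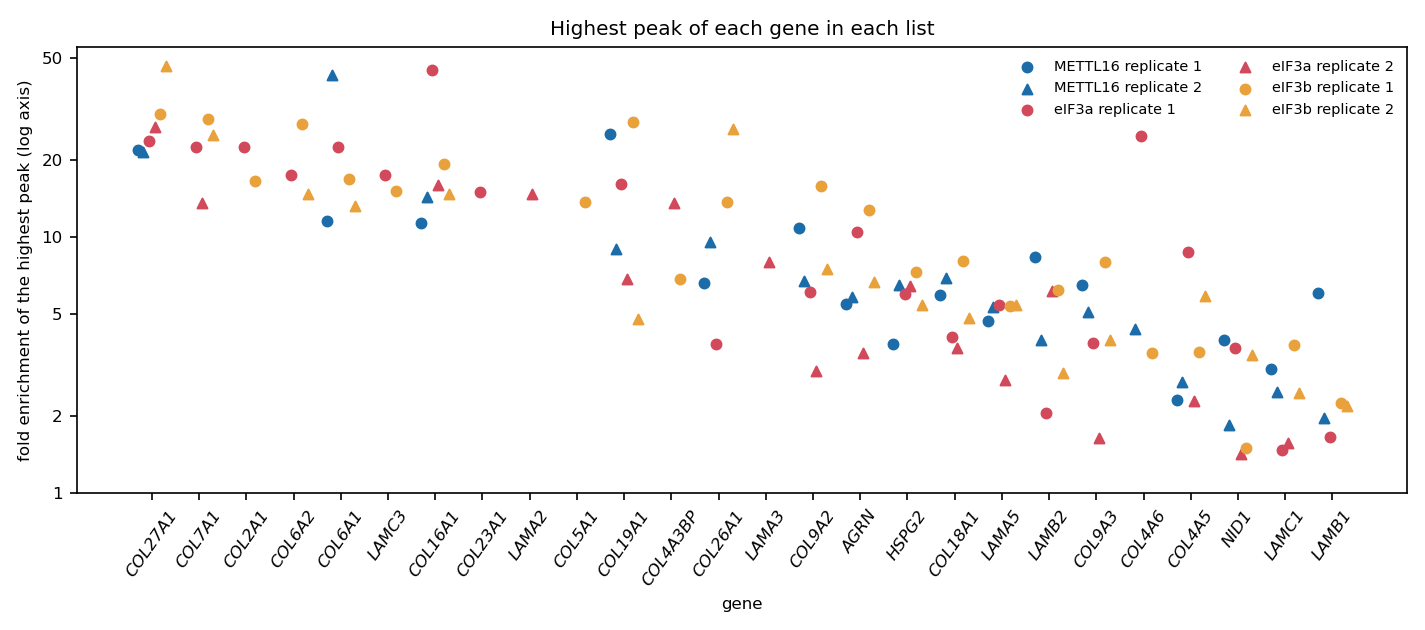
Each point is the fold enrichment over input of the highest peak of a gene in 1 list (y axis, logarithmic), with genes on the x axis ordered by their median over the lists that hold a peak. COL27A1 lies between 21.4 and 46.2 in all 6 lists, and LAMB1 and LAMC1 lie lowest by their median.

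HSPG2 codes for perlecan and had the most peaks of all members, 94 over the 6 lists. METTL16 had 11 and 12 peaks, eIF3a 22 and 16, and eIF3b 16 and 17. These covered 12.8% and 12.4% of the transcript for METTL16, 39.0% and 66.1% for eIF3a, and 51.2% and 26.2% for eIF3b, so both METTL16 lists lay below the other 4. Its highest peak was 3.80-fold to 7.28-fold. The bases common to all 6 lists were few, 573 of 14341, the longest run being 210 coding bases in exon 87 (chr1:21829391-21829600). All 6 HSPG2 peaks centred in the 3′ UTR, and 9 of its peaks in all, also covered exons of LDLRAD2 on the other strand.

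AGRN codes for agrin, and its peaks covered most of the transcript for all 3 proteins. Cover was 79.7% and 59.8% for METTL16, 86.1% and 68.7% for eIF3a, and 98.0% and 88.2% for eIF3b. The number of peaks was 9 and 9, 4 and 10, and 2 and 6 in the same order, so a gene with few peaks can be the one most fully covered. In eIF3b replicate 1 a single AGRN peak reached 6975 bases on 38 exonic blocks at 12.7-fold. Of the 40 AGRN peaks, 9 also covered exons of another annotated gene on the same strand, this peak among them. The highest peak in the other lists was 5.44-fold and 5.82-fold for METTL16, 10.4-fold and 3.52-fold for eIF3a, and 6.68-fold for eIF3b replicate 2. All 6 lists shared 2804 bases, 38.3% of the transcript. NID1, nidogen, was covered far less, at 1.04% to 11.4%, with 8 of its 10 peaks centred in the 3′ UTR. Its highest peak was 3.97-fold and 1.85-fold for METTL16, 3.67-fold and 1.42-fold for eIF3a, and 1.50-fold and 3.44-fold for eIF3b.

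Among laminin chains, LAMA5, the alpha chain common in mature basement membranes, had 81 peaks, all centred in coding sequence. It held 15 and 15 peaks for METTL16, 15 and 14 for eIF3a, and 10 and 12 for eIF3b. Cover was 46.8% and 37.6% for METTL16, 57.7% and 67.7% for eIF3a, and 78.4% and 61.6% for eIF3b, again with both METTL16 lists lowest. The highest peak was 4.70-fold and 5.33-fold, 5.40-fold and 2.76-fold, and 5.37-fold and 5.40-fold in the same order, without separation of the proteins. All 6 lists shared 2465 bases of LAMA5, the longest run being 600 coding bases in exons 55 to 60 (chr20:62314892-62317352). The LAMA5 sequence printed above is another shared run, of 270 bases.

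The beta and gamma chains were covered in part. LAMB2 had a peak over its first exon in all 6 lists, of 91 to 450 bases, which was also its highest peak in each. There the fold was 8.33 and 3.97 for METTL16, 2.05 and 6.12 for eIF3a, and 6.18 and 2.94 for eIF3b, and the 6 peaks shared 35 transcript bases (chr3:49133016-49133050), which are 5′ UTR. LAMB1 had its highest peak at 6.03-fold and 1.96-fold for METTL16, 1.65-fold in eIF3a replicate 1 and no peak in replicate 2, and 2.24-fold and 2.19-fold for eIF3b. The 6.03-fold LAMB1 peak of METTL16 replicate 1 lay in exons 1 to 2, and 2 other LAMB1 peaks, in exons 27 to 29, also touched exons of DLD on the other strand. LAMC1 stood at 3.06-fold and 2.48-fold for METTL16, 1.47-fold and 1.56-fold for eIF3a, and 3.77-fold and 2.45-fold for eIF3b, so both eIF3a lists were lowest. The lowest log10 p over all LAMC1 peaks of a list was -18.3 and -18.0, -7.17 and -3.92, and -26.8 and -11.4. In METTL16 replicate 2 and eIF3b replicate 2 it came from another peak than the highest, which had -12.6 and -6.38. LAMC3 had peaks in the replicate 1 lists of eIF3a (17.4-fold) and eIF3b (15.1-fold), the highest of which had the same fold and p as 192 and 134 peaks of their lists, themselves included. LAMA2 at 14.7-fold and LAMA3 at 7.96-fold had 1 peak each, both in eIF3a replicate 2.

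COL4A5 and COL4A6 were the collagen IV chains with peaks. COL4A5 had highest peaks of 2.3-fold and 2.72-fold for METTL16, 8.68-fold and 2.29-fold for eIF3a, and 3.54-fold and 5.87-fold for eIF3b. The 2.72-fold, 8.68-fold and 5.87-fold peaks shared fold and p with 8, 17 and 26 peaks of their lists, themselves included. The 8.68-fold and 5.87-fold peaks were centred in the 3′ UTR of COL4A5. Cover of its transcript was 6.48% and 0.93%, 14.8% and 4.62%, and 23.9% and 7.85%, and no base was shared by all 6 lists. COL4A6 had a peak of 4.37-fold in METTL16 replicate 2, up to 24.8-fold in eIF3a replicate 1 and 3.53-fold in eIF3b replicate 1, and no protein held it in both replicates. The 24.8-fold peak had the same fold and log10 p of -4.52 as 72 peaks of its list, itself included.

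COL7A1, the anchoring fibril collagen that ties basement membrane to the tissue under it, was the member with peaks in all 4 eIF3a and eIF3b lists and in no METTL16 list, a pattern of 4.12% of all list genes. It had 3 and 1 peaks for eIF3a and 16 and 2 for eIF3b. Cover of the transcript was 5.23% and 0.66% for eIF3a and 36.9% and 7.81% for eIF3b, so 1 list held most of it. The highest peak was 22.3-fold and 13.5-fold for eIF3a and 28.8-fold and 25.0-fold for eIF3b, while the smallest log10 p in the 4 lists were -4.02, -2.97, -8.55 and -5.64. The eIF3a replicate 1 peak shared its fold and p with 132 peaks of that list, itself included, among them the COL2A1 peak and the highest COL6A1 peak. For the highest COL7A1 peaks of eIF3a replicate 2 and eIF3b replicates 1 and 2, these were 59, 22 and 17 peaks. In all, 9 members had a peak in an eIF3a or eIF3b list and in no METTL16 list, where 30.2% of all list genes did.

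COL6A1 and COL6A2, chains of the beaded filament collagen VI, have short helices, which make up 29.4% and 32.4% of their coding bases. Of the coding bases under a peak in any list, 53.9% in COL6A1 and 93.8% in COL6A2 were helix. The highest COL6A1 peak was 11.5-fold and 42.9-fold for METTL16, 22.3-fold in eIF3a replicate 1, and 16.8-fold and 13.2-fold for eIF3b. COL6A2 had a peak in both eIF3b lists (27.5-fold and 14.7-fold) and in eIF3a replicate 1 (17.4-fold). The 27.5-fold, 14.7-fold and 17.4-fold COL6A2 peaks shared fold and p with 17, 154 and 192 peaks of their lists, themselves included. For the 13.2-fold COL6A1 peak of eIF3b replicate 2 there were 14. COL26A1 stood at 6.62-fold and 9.53-fold for METTL16, 3.83-fold in eIF3a replicate 1, and 13.7-fold and 26.4-fold for eIF3b. All but the 13.7-fold peak shared fold and p with others, namely with 11, 22, 24 and 24 peaks of their lists, themselves included. The single peaks of COL23A1 (14.9-fold, 60 bases) and COL5A1 (13.7-fold, 61 bases) had the same fold and p as 175 and 128 peaks of their lists, themselves included. COL2A1 had 1 peak in each replicate 1 list of eIF3a (22.3-fold) and eIF3b (16.5-fold), the latter at the same fold and p as 118 peaks of its list, itself included. COL4A3BP had 1 peak in eIF3a replicate 2 (13.5-fold) and 1 in eIF3b replicate 1 (6.86-fold). The 13.5-fold peak had the fold and p of 59 peaks of that list, itself included, among them the COL7A1 peak.

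**Figure D4:**
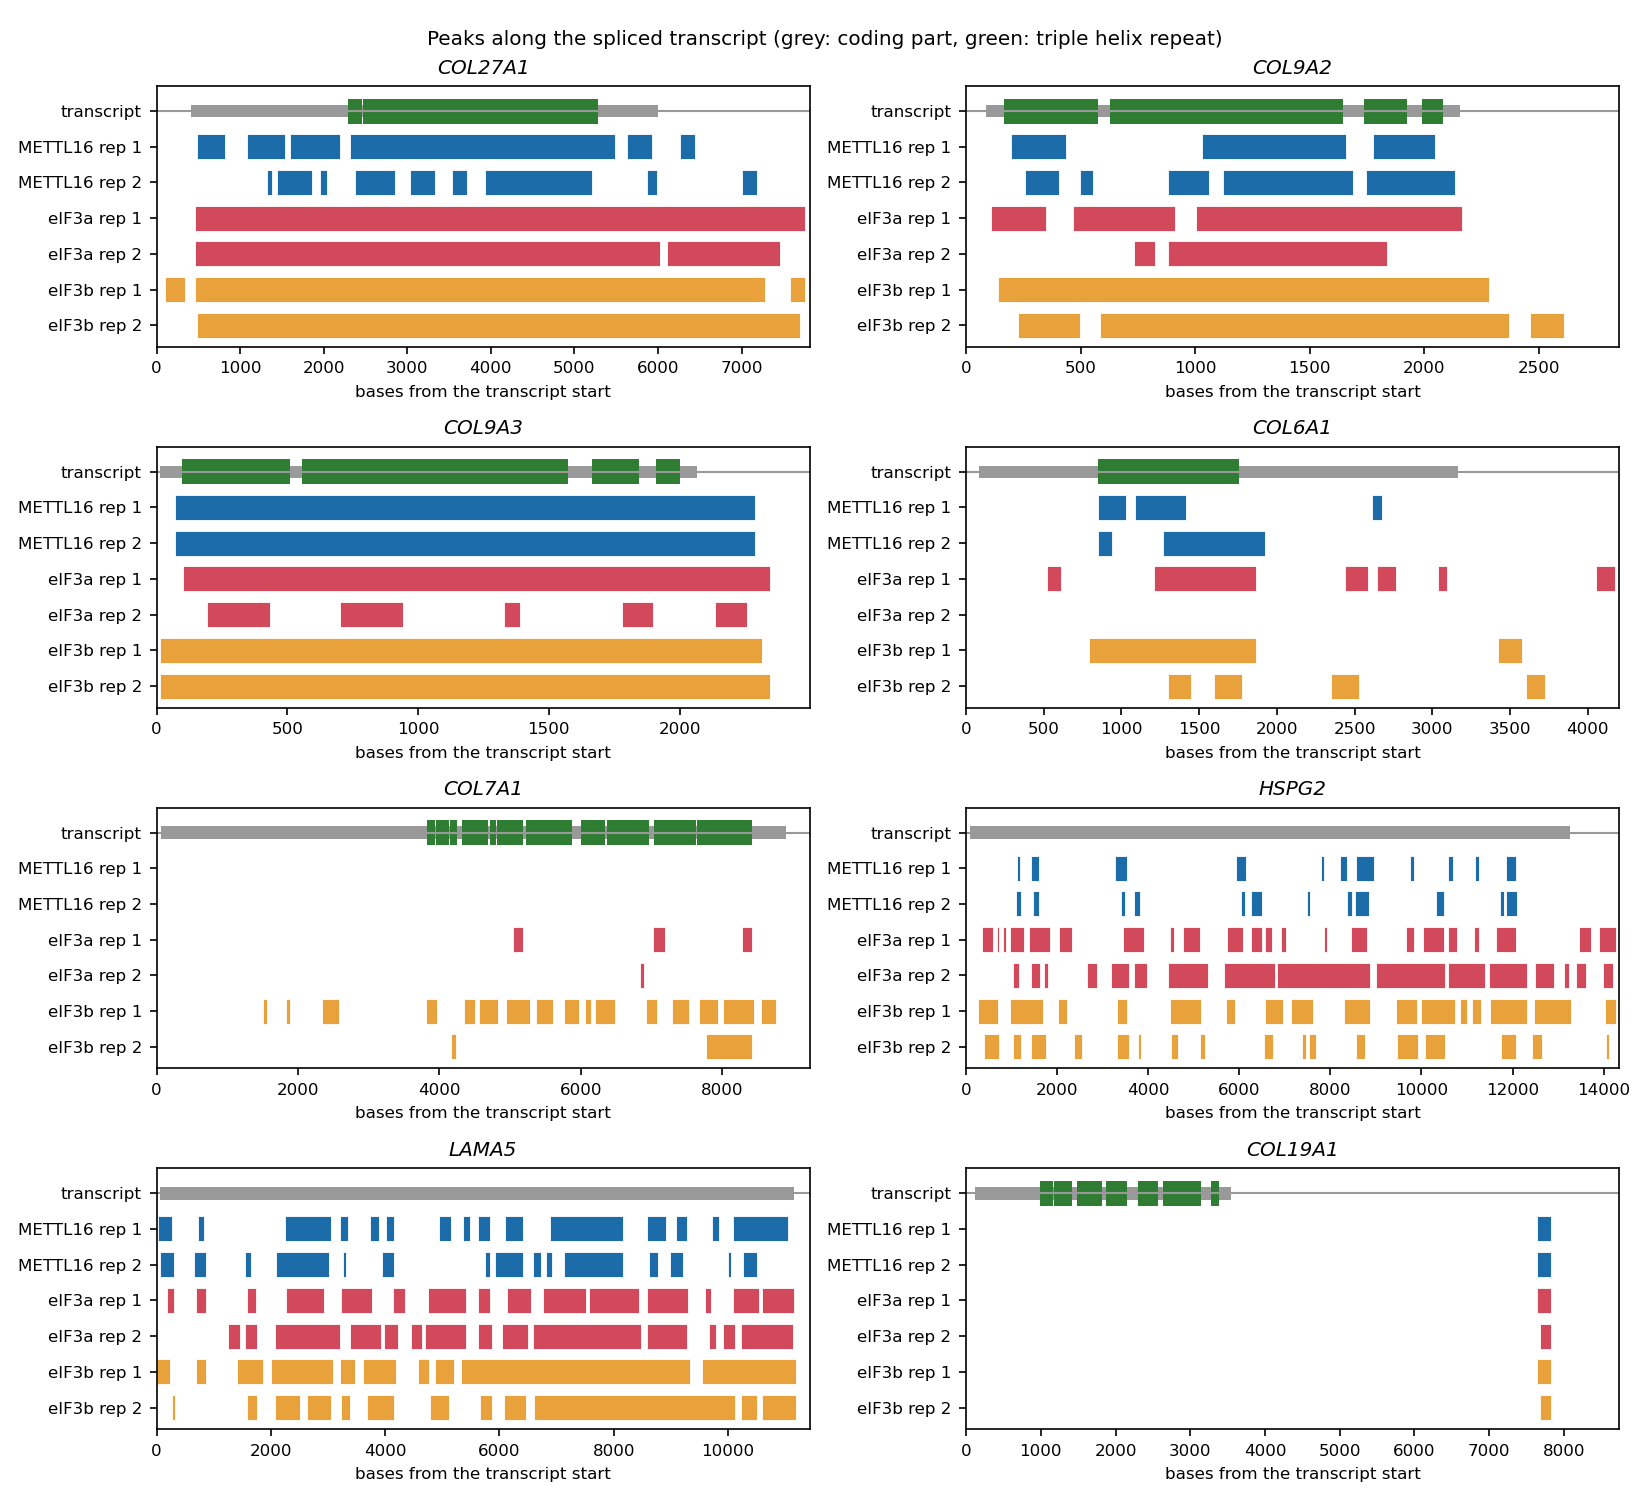
Each panel shows the peaks of 1 gene along its spliced canonical transcript (x axis, bases from the transcript start), 1 row per list, with blue for METTL16, red for eIF3a and orange for eIF3b. The top row marks the coding part in grey and the triple helix repeat in green. COL27A1 is covered almost end to end in the eIF3a and eIF3b lists and COL9A3 in all lists but eIF3a replicate 2, HSPG2 and LAMA5 in many separate stretches, and COL19A1 at 1 place in the 3′ UTR.

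The helix part of a collagen transcript was set against its other coding bases, with the helix defined as at least 10 glycine codons in a row at a spacing of 3 codons. This measure was added after the peaks had been seen. Over the 15 collagens with a peak there were 66 pairs of gene and list, and in 47 of them a larger share of helix bases than of other coding bases lay under peaks. Pooled over the collagens of a list, the helix was covered to 28.2% to 46.8% and the other coding bases to 23.9% to 33.8%, with the helix higher in all 6 lists. COL6A1 had the widest gap, with the helix covered more by 24.8 to 92.1 percentage points in all 5 lists that held it, and in eIF3b replicate 1 the whole helix lay under peaks. COL6A2 had 33.4% of the helix and 0.935% of other coding bases under peaks on average over its 3 lists, and COL7A1 had 22.2% and 5.07% over its 4. In COL27A1 and COL18A1 both parts were covered, with the helix higher in all 6 lists, by 1.65 to 47.6 and by 0.299 to 35.9 percentage points. Where nearly all coding bases lay under peaks the gap was small. In the eIF3a and eIF3b lists 100% of the COL27A1 helix and 97.2% to 98.4% of its other coding bases were covered. Such small gaps count among the 47. COL26A1 went the other way in 4 of its 5 lists, COL23A1 and COL5A1 in their single list, and COL19A1 had no coding base under a peak. The helix had the higher GC content in 14 of the 15 collagens, with 69.0% against 63.4% in COL6A1, and the part of GC content in the gap was not tested. The genes share their 6 libraries, so the pairs are not independent.

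**Figure D5:**
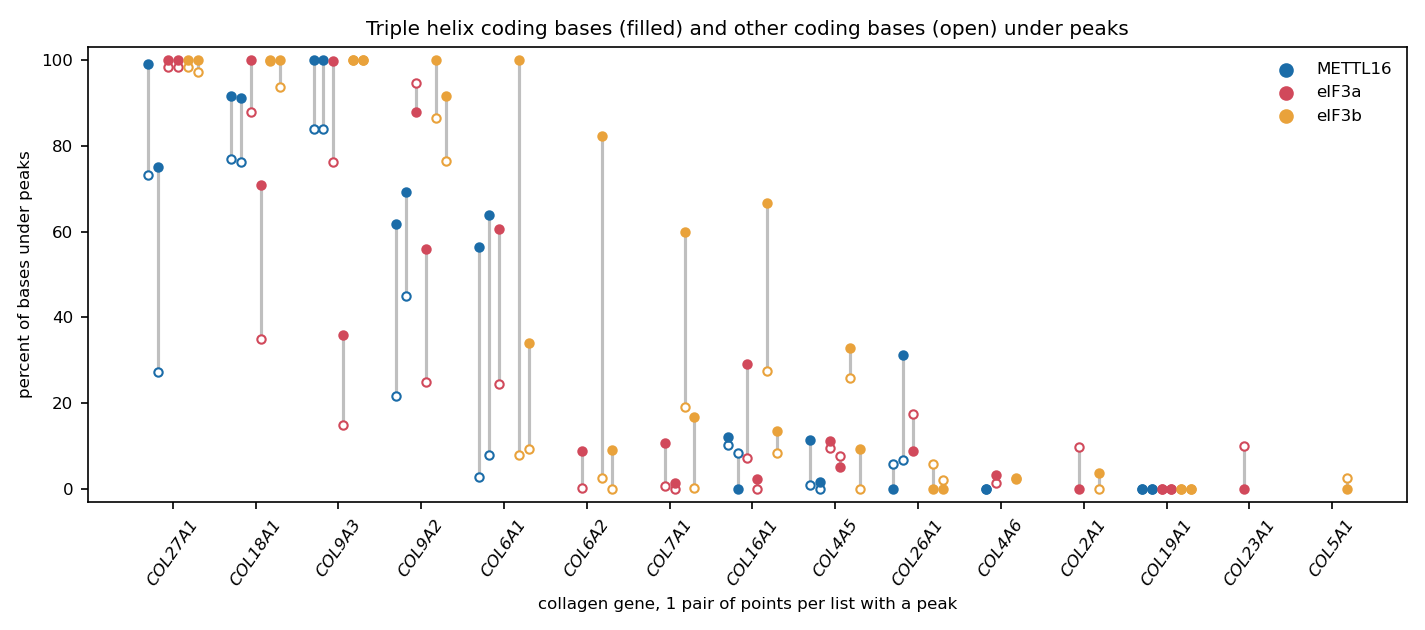
For each collagen (x axis) and each list that holds a peak of it, the filled point gives the percentage of triple helix coding bases under peaks and the open point that of the other coding bases (y axis, 0 to 100), joined by a line. Filled points lie above open points in 47 of 66 pairs, most widely in COL6A1.

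METTL16 covered the shared members less than eIF3b did. Of the 13 members in all 6 lists, 10 had less of the transcript under peaks in both METTL16 lists than in both eIF3b lists, and 0 had more. Over all genes in the 6 lists the shares were 56.7% and 3.43%, so the direction was that of the lists as a whole. COL27A1, HSPG2 and LAMA5 were lower in both METTL16 lists than in all 4 eIF3a and eIF3b lists, which is 3 of 13, beside 28.6% of all such genes, and 0 members were higher than all 4, beside 2.55%. The METTL16 lists also held fewer peaks than the eIF3b lists, 13136 and 13199 against 20027 and 20832. The eIF3a replicate 2 list held still fewer, 12921. The part of list length in the cover was not tested.

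Genes that modify, fold, export, cut or cross-link collagen chains, or help in these steps, belong to the same pathway. Of 34 such genes, 23 had a peak in at least 1 list, and both replicates held a peak for 12 with METTL16, 7 with eIF3a and 19 with eIF3b. Over all annotated protein coding genes, 53.6% had a peak in at least 1 list, 22.9%, 22.8% and 32.2% had one in both replicates of METTL16, eIF3a and eIF3b, and 13.6% had one in all 6 lists. The 4 pathway genes in all 6 lists were the lysyl hydroxylases PLOD2 and PLOD3, the collagen galactosyltransferase COLGALT1 and the collagen chaperone FKBP10. SERPINH1, the chaperone that binds the finished helix, had its highest peak at 3.87-fold and 3.63-fold for METTL16, 3.53-fold in eIF3a replicate 1 and no peak in replicate 2, and 3.11-fold and 2.18-fold for eIF3b. Of 18 receptors and cell surface proteins that bind this matrix, 13 had a peak in at least 1 list, and both replicates held one for 7 with METTL16, 6 with eIF3a and 7 with eIF3b, beside the same 53.6%, 22.9%, 22.8% and 32.2%. The 4 in all 6 lists were the laminin receptor BCAM, the glypican GPC1 and the syndecans SDC1 and SDC4. BCAM, which binds the laminin alpha chain coded by LAMA5, stood at 5.46-fold and 5.54-fold for METTL16, 9.59-fold and 3.70-fold for eIF3a, and 9.28-fold and 7.48-fold for eIF3b. Over all list genes, 42.6%, 42.4% and 60.0% had a peak in both replicates of METTL16, eIF3a and eIF3b. The reason for the lower eIF3a counts in these 2 gene lists was not tested.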

How the data were processed

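RIP-seq peak lists of 6 RIP samples from HepG2 lines were used, 1 per sample. Per the study's methods, the authors mapped reads with STAR to GRCh38, and exomePeak with default settings gave the peaks of each RIP over input. Versions, gene annotation, use of strand and pairing of inputs are not given in the sources used here. A p-value, a gene name and the exonic blocks were deposited for every peak. The deposited log10 values of the raw and adjusted p were treated as a score. The deposited fold enrichment of RIP over input is a ratio. These values were used to describe, rank or filter peaks. No read counts were used, so the depth behind a peak is unknown.

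Gene structures came from GENCODE release 44. All 472 member peaks had at least 50% of their bases on exons of their gene, by Python 3.11.15 with pandas 2.3.3. Coordinates count from 1. A peak was assigned to coding sequence or UTR by its middle exonic base, canonical transcript first. Cover is the share of canonical transcript bases under peaks. Proteins were compared over lists with exact permutation tests (scipy 1.17.1). Region calls, Jaccard indices and tests were tested on simulated data. Replicates were 2 per protein. Members with a peak in all 6 lists, in 2 proteins and not the third, laminin and collagen IV chains, nidogens, perlecan and agrin were named, except 1 item that is not reported here. All other members, SERPINH1 and BCAM were named after their values were seen. Alternatives were a fold of at least 4, the 5000 peaks with the smallest p-values, matrix genes only, placement on exons, region by bases or by the highest peak, a peak in either replicate, the replicate block and leaving out lists. Leaving out peaks on overlapping genes, the members in 5 lists and the helix measure were added after the data were seen. Members and gene lists were chosen with earlier results of these data known. Sequences were read from the GRCh38 genome.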

Additional observations from a re-analysis of the deposited data

How the results depend on the processing

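Of 155 alternatives over 17 results, 131 kept the direction or stayed within 1.5 times. The cause of the others was not tested. Some of the 131 could not have differed. All 472 member peaks lay on exons, so the setting of placement on exons repeated the main values. The replicate block leaves each mean difference between proteins as it was, by construction. With peaks of at least 4-fold, peaks per member for METTL16 minus eIF3b turned to -0.104, width for METTL16 minus eIF3a to 164 and minus eIF3b to 74.5 bases, and members with a peak in both replicates fell to 10 for METTL16 and 5 for eIF3a. With the 5000 peaks of smallest p per list, the share of members for METTL16 minus eIF3a turned to 11.5 and minus eIF3b to 0 percentage points. In the same setting, peaks per member were -0.819 for METTL16 minus eIF3a and 1.37 for eIF3a minus eIF3b, width for eIF3a minus eIF3b was 14.75 bases, and members in both replicates numbered 7 for eIF3a and 10 for eIF3b. Members in either eIF3a replicate numbered 25. Without peaks on overlapping genes, the coding share for eIF3a minus eIF3b was 0.645 percentage points. It was -12.6 with peaks of at least 4-fold. Leaving out 1 list at a time, the Jaccard difference ranged from -0.0703 (without METTL16 replicate 1) to 0.149, and was -0.0689 without METTL16 replicate 2. The eIF3a minus eIF3b differences ranged from -13.5 to 5.77 percentage points for the share of members, -0.173 to 0.126 for peaks per member, -1.79 to 1.18 percentage points for the coding share and -22.5 to 6.50 bases for width. The share and the coding share turned without eIF3a replicate 2 or eIF3b replicate 1, peaks per member without eIF3a replicate 2 or eIF3b replicate 2, and width without eIF3a replicate 1. METTL16 minus eIF3a and minus eIF3b kept their signs. The share of members ranged from -21.2 (without eIF3a replicate 2) to -1.92 (without eIF3a replicate 1) and from -25.0 (without eIF3b replicate 2) to -5.77 percentage points (without eIF3b replicate 1). Peaks per member ranged from 0.0856 to 0.843 and from 0.0621 to 0.819, lowest without METTL16 replicate 1 and highest without METTL16 replicate 2. The coding share ranged from 5.16 to 9.56 and from 4.85 to 9.25 percentage points, and width from -44.5 to -15.5 and from -52.5 to -23.5 bases. Members of eIF3a ranged from 17 to 22, the latter without eIF3a replicate 2. The replicate numbers are shared labels and not known to pair samples. With the replicate block, the within minus between difference of the Jaccard index was 0.0236, which kept its direction. The differences between proteins cannot change direction there, because the mean of the paired differences equals the difference of the means. Cover, counts and regions depend on peaks called at unknown depth. For each protein, a count over both replicates can be no larger than the count in either of its lists.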
